A study of Homo sapiens with 12 samples.

Results

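The transsulfuration pathway and the enzymes that make and remove hydrogen sulfide were described at the RNA level through 5 genes, CBS, CTH, MPST, ETHE1 and SQOR. They were chosen by name, for their known place in sulfur metabolism, out of 60617 gene identifiers in the deposited tables. Earlier results of these data were known when they were chosen. All 5 were found, and 4 of them passed the filter on low counts and were tested among 15692 genes. CBS did not pass and was described from its counts.

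RNA had been sequenced from HCT 116p53-/- cells, a human colorectal cancer line that lacks p53, and from a sub-line, uL3ΔHCT 116p53-/-, whose labels give the genotype P53-/- with RPL3 KO. RPL3 encodes the ribosomal protein uL3, and the study's text describes the sub-line as stably silenced of uL3. Each line was grown in DMEM with 10% FBS and treated with 5 nM actinomycin D (Act D) for 24 h or with vehicle. At this low dose Act D mainly blocks transcription of ribosomal RNA. Each of the 4 groups had 3 libraries labelled as biological replicates, every group lacked p53, and the totals per library were between 10087925 and 21138886 expected counts. The sub-line is a single line, so what differs between the lines cannot be told apart from what differs between any 2 separately kept lines.

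Mammalian cells draw cysteine from methionine by transsulfuration. Cystathionine beta-synthase (CBS) joins homocysteine and serine to cystathionine, and cystathionine gamma-lyase (CTH) splits cystathionine to release cysteine. Both enzymes can also release hydrogen sulfide, a gas that serves as a signal at low levels and blocks respiration at high ones. Mercaptopyruvate sulfurtransferase (MPST) is the third known source of sulfide, from a keto acid made out of cysteine. Sulfide quinone oxidoreductase (SQOR) removes sulfide in the inner mitochondrial membrane and passes its electrons to ubiquinone, and persulfide dioxygenase (ETHE1) oxidises the persulfide that SQOR makes. In the colon this removal is best known for protecting epithelial cells against the sulfide that gut bacteria release.

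On the hg38 build with GENCODE v44 names, CBS lies at chr21:43053191-43076943 on the minus strand and CTH at chr1:70411218-70439851 on the plus strand. MPST lies at chr22:37019635-37029821 on the plus strand, ETHE1 at chr19:43506719-43527230 on the minus strand, and SQOR at chr15:45631148-45691281 on the plus strand. The promoter windows of the 2 members that were lower in both comparisons of the lines, CTH and SQOR, and of CBS, whose counts were near 0, are shown to let their sequences be compared. Each window holds 250 bases before and 50 bases after the annotated start, is read 5′ to 3′ on the gene's strand, and comes from RefSeq on build GRCh38.p14. Capitals mark GC boxes (GGGCGG) and CCAAT boxes (CCAAT), each searched on both strands.
CTH promoter, chr1:70411018-70411317, plus strand: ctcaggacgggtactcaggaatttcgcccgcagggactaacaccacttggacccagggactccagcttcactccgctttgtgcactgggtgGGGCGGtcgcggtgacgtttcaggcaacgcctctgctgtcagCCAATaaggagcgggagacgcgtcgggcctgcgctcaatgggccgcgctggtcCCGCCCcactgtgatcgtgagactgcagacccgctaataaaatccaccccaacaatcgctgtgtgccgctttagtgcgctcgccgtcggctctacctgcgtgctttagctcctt
SQOR promoter, chr15:45634779-45635078, plus strand: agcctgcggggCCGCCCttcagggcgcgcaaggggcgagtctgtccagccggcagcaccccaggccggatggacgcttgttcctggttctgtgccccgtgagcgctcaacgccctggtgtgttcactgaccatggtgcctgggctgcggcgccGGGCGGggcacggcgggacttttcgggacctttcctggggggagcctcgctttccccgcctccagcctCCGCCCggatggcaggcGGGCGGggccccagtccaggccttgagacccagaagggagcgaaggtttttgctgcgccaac
CBS promoter, chr21:43075786-43076085, minus strand: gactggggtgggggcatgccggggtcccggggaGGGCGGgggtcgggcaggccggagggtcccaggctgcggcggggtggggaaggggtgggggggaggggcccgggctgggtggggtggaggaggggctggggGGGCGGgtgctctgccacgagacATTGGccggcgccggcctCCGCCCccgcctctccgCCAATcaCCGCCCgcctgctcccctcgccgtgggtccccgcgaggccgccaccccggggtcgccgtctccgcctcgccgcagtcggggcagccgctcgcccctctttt

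The CTH window held 2 GC boxes and 1 CCAAT box, the latter between positions -117 and -113 from the start. The SQOR window held 4 GC boxes and 0 CCAAT boxes, as did the ETHE1 window, which is not printed. The CBS window held 4 GC boxes and 2 CCAAT boxes. Of 35116 RefSeq promoter windows of this length, 45% held a GC box and 34.6% a CCAAT box on either strand. The windows held 26 CpG dinucleotides in CTH, 26 in SQOR, 28 in ETHE1 and 32 in CBS, against a median of 14 over all windows. No match overlapped another one in the 3 windows printed. All 4 windows held more CpG dinucleotides than the median window, whether or not the gene differed between the lines.

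The RNA of RPL3, the gene named in the label of the sub-line, was read first. RPL3 had between 1120.8 and 1150.7 CPM (counts per 1000000 counts of a library, scaled with edgeR's TMM factors) in HCT 116p53-/- cells with vehicle and between 1188.3 and 1337.4 in the vehicle libraries labelled uL3Δ. With Act D the ranges were 1111.5 to 1137.4 and 1132.1 to 1278.9. The fitted log2 fold change between the lines was 0.13 ± 0.08 (SE) with vehicle (adjusted p = 0.155) and 0.12 ± 0.08 with Act D (adjusted p = 0.187). With library size alone as the scale it was -0.11 and -0.13, and in deposited TPM (transcripts per 1000000, not scaled for composition) RPL3 was between 719.9 and 826.1 against 545.4 to 640.7 with vehicle. The direction of RPL3 thus depended on the scale and no difference passed the test. RNA counts do not measure the protein uL3, so they cannot settle whether the label holds. The libraries of the sub-line are therefore called "labelled uL3Δ" below.

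The sub-line also differed in cell type markers. The summed level of 15 colon epithelium markers was between 2679.9 and 2889.4 CPM in HCT 116p53-/- cells with vehicle and between 1616.2 and 1814.7 CPM in the vehicle libraries labelled uL3Δ. The defining markers CDX1, VIL1, LGALS4 and GPA33 were under 1 CPM in every library of both lines, and CDH1, KRT20, CDX2 and CLDN7 were also under 1 CPM in every vehicle library labelled uL3Δ. Other markers of this list went the other way with vehicle, KRT18 from 604.9 to 840.3 CPM and CLDN3 from 0.951 to 1.32 CPM. The summed level of 15 mesenchymal markers was between 63.1 and 75.9 CPM in HCT 116p53-/- cells and between 2630.7 and 2698.2 CPM in the sub-line, most of it VIM in the sub-line (22.0 against 2237.4 CPM). COL1A1 (7.5 against 4.14 CPM) and ACTA2 (4.46 against 0.776 CPM) of this list were lower in the sub-line. Of the mesenchymal markers CDH2, TWIST1, COL1A2, THY1 and DCN were under 1 CPM in every vehicle library of both lines. The liver, which carries much transsulfuration, was not visible: ALB, APOA1, APOA2, APOB, TTR, FGB and AHSG were under 1 CPM in every library, although the hepatocyte list summed to 36.2 to 38.1 CPM in HCT 116p53-/- cells and 4.85 to 7.76 CPM in the sub-line with vehicle, mostly CPS1 in the former (33.5 CPM) and mostly TF in the latter (4.55 CPM, with CPS1 at 1.04 CPM). The neuroendocrine list summed to between 12.2 and 18.8 CPM in the 4 groups, and the leukocyte list to at most 2.12 CPM in HCT 116p53-/- cells and between 5.22 and 9.25 CPM in the sub-line, most of it LYZ. The neuroendocrine sum hides members that moved in opposite directions. With vehicle the sub-line had less SCG2 (13.7 against 7.09 CPM) but more CHGB (0.0216 against 5.64 CPM) and CHGA (0 against 1.12 CPM). SYP differed little (1.6 against 1.7 CPM), and INSM1, NEUROD1 and SCG3 were under 1 CPM in every library. The part of these marker differences in the values below was not tested. In bulk libraries fewer cells that hold an RNA and less of that RNA per cell cannot be told apart.

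The first step of transsulfuration, CBS, had almost no counts assigned to it in either line. The expected count of CBS was 0, 0 and 0.5 in the vehicle libraries of HCT 116p53-/- cells and 2.31, 1 and 1 with Act D. The sub-line's values were 2, 0 and 2 with vehicle and 2.09, 3.78 and 0 with Act D. No library reached 4 expected counts for CBS. Without the second copy described below, the groups overlapped in 3 of the 4 comparisons. The exception was Act D against vehicle in HCT 116p53-/- cells, where 38.2% of all genes tested did not overlap. RSEM's posterior standard deviation of the CBS count was at most 1.02 in the libraries deposited per gene.

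CBS has a second copy, CBSL (ENSG00000274276), at chr21:6444869-6467513 on the minus strand, which GENCODE v44 types as an artifact of the assembly. Of the 100-base stretches of the copy's transcript, 95.8% occur in CBS transcripts as well, so that reads could be shared between both. This share rests on the 1 transcript of the copy in GENCODE v44, whereas the deposited tables hold 10. Summed over both copies, the counts were 0, 0 and 1 in HCT 116p53-/- cells with vehicle, 4, 2 and 1 with Act D, 2, 4 and 4 in the vehicle libraries labelled uL3Δ and 3, 5 and 0 with Act D. The exception to overlap thus changed with the sum. The vehicle groups of the lines did not overlap, as for 72.5% of all genes tested, and Act D and vehicle in HCT 116p53-/- cells met at 1 count. The sum over all 12 libraries was 26 counts, or 0.156 CPM of the unscaled totals (95% Poisson interval 0.102 to 0.228, which covers counting error only). At these totals 3 counts, taken as the least that shows expression in 1 library, correspond to between 0.142 and 0.297 CPM, so that the sums lay near this floor.

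U2AF1, a splicing factor gene chosen after its values were seen, sits in the same duplicated part of chromosome 21, and 98.6% of the 100-base stretches of its second copy occur in U2AF1 transcripts. Its summed count was between 633 and 1242 per library, or 55.9 to 85.6 CPM of the unscaled totals. Reads of U2AF1 and its copy were thus counted in the deposited tables. Counts of 1 neighbour cannot show how reads of CBS and its copy were counted. How much of the low CBS count rests on the duplication was not tested.

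Between the lines, the summed CBS count was 1 in the HCT 116p53-/- vehicle libraries and 10 in the vehicle libraries labelled uL3Δ, a ratio of 8.31 after division by the totals with an exact 95% counting interval of 1.18 to 360.6. In a fit without the filter on low counts, edgeR gave a log2 fold change of 2.87 ± 1.31 for the sum, which did not pass (adjusted p = 0.0762, and 0.0621 with posterior mean counts). With Act D the sums were 7 and 8, with a ratio of 1.35 and an interval of 0.428 to 4.38 (adjusted p = 0.716). For Act D against vehicle the sums were 1 and 7 in HCT 116p53-/- cells (ratio 7.02, interval 0.902 to 316.4, adjusted p = 0.377) and 10 and 8 in the sub-line (ratio 1.14, interval 0.391 to 3.21, adjusted p = 1.0). CBS thus did not pass in any of these comparisons, and the interval of the ratio between the lines with vehicle, which lies above 1, covers counting error only.

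The second step, CTH, was measured in every library and was lower in the libraries labelled uL3Δ. CTH was at 9.72, 9.23 and 9.18 CPM in HCT 116p53-/- cells with vehicle and at 5.14, 7.41 and 6.01 CPM in the vehicle libraries labelled uL3Δ. With Act D it was at 9.47, 8.25 and 10.1 CPM in HCT 116p53-/- cells and at 7.20, 7.08 and 6.15 CPM in the sub-line. All 6 libraries of the sub-line lay below all 6 of HCT 116p53-/- cells. The log2 fold change was -0.58 ± 0.15 (SE) with vehicle (adjusted p = 0.00241), a ratio of 0.667, and -0.44 ± 0.16 with Act D (adjusted p = 0.0208), a ratio of 0.738.

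The Act D call for CTH lay close to the threshold: without Act D library 1 of HCT 116p53-/- cells the adjusted p was 0.0522, and without library 3 it was 0.0502. CTH did not respond measurably to Act D in either line. The log2 fold change against vehicle was -0.02 ± 0.15 in HCT 116p53-/- cells (adjusted p = 0.962, approximate 95% interval -0.31 to 0.28). In the libraries labelled uL3Δ it was 0.13 ± 0.16 (adjusted p = 0.68, interval -0.19 to 0.45). CTH reads came from 2 transcripts in vehicle library 2 of HCT 116p53-/- cells, the library deposited per transcript, with 71.3% of the count on CTH-202 and 28.7% on CTH-203.

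MPST, the third source of sulfide, was lower in Act D-treated HCT 116p53-/- cells than in the other groups. It was at 27.1, 32.9 and 34.1 CPM in HCT 116p53-/- cells with vehicle and at 20.6, 26.4 and 19.9 CPM with Act D. The sub-line's values were 33.7, 39.4 and 31.9 CPM with vehicle and at 44.6, 30.6 and 34.1 CPM with Act D. The 3 Act D libraries of HCT 116p53-/- cells stood below the 9 others, which overlapped each other.

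MPST RNA fell with Act D in HCT 116p53-/- cells, by 0.49 ± 0.15 on the log2 scale (adjusted p = 0.0267), a ratio of 0.713. This call was lost without vehicle library 2 (adjusted p = 0.083), vehicle library 3 (0.0967), Act D library 1 (0.115) or Act D library 3 (0.11) of that line. In the libraries labelled uL3Δ the response was 0.06 ± 0.14 (adjusted p = 0.835, interval -0.22 to 0.35). The difference between both responses was 0.55 ± 0.21 and did not pass (adjusted p = 0.121), with an approximate 95% interval of 0.15 to 0.95.

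Between the lines MPST differed with Act D, where it was higher in the libraries labelled uL3Δ by 0.71 ± 0.15 on the log2 scale (adjusted p = 0.000334), a ratio of 1.64, with no overlap of the groups. With vehicle the difference was 0.16 ± 0.14 (adjusted p = 0.319, interval -0.12 to 0.44), and it was -0.08 with library size alone as the scale. Most of the MPST count, 86.1%, fell on transcript MPST-206 in the library deposited per transcript, and 9.4% on MPST-207, which retains an intron. MPST shares 6 exonic bases with TST on the opposite strand, 0.1% of its exon sequence, and the library kit did not mark strand.

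SQOR, which removes sulfide, showed the largest difference among the 4 tested members in both comparisons of the lines. SQOR was at 12.6, 12.2 and 13.4 CPM in HCT 116p53-/- cells with vehicle and at 3.69, 8.66 and 6.55 CPM in the vehicle libraries labelled uL3Δ. With Act D it was at 15.1, 10.9 and 14.4 CPM and at 4.87, 6.85 and 6.15 CPM. All libraries of the sub-line were below all of HCT 116p53-/- cells, and the spread among the 3 vehicle libraries of the sub-line was wide. The log2 fold change was -0.98 ± 0.21 with vehicle (adjusted p = 0.000509) and -1.19 ± 0.23 with Act D (adjusted p = 0.000156), ratios of 0.506 and 0.437.

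Leaving out any single library kept SQOR past the threshold, with log2 fold changes from -1.3 to -0.73 with vehicle and from -1.34 to -1.05 with Act D. Act D changed SQOR by 0.08 ± 0.2 in HCT 116p53-/- cells (adjusted p = 0.844, interval -0.32 to 0.48) and by -0.14 ± 0.24 in the sub-line (adjusted p = 0.784, interval -0.61 to 0.34), neither of which passed. All of the count fell on SQOR-201 in the library deposited per transcript. SQOR shares 881 exonic bases (30.0%) with ENSG00000260170 on the same strand, which had 12.3 expected counts in all over 12 libraries, and RSEM's posterior standard deviation of the SQOR count was at most 4.26.

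ETHE1, which acts after SQOR, did not pass the test in any comparison. It was at 14.0, 20.5 and 18.1 CPM in HCT 116p53-/- cells with vehicle and at 22.9, 18.1 and 19.9 CPM with Act D. The sub-line's values were 14.8, 18.3 and 17.1 CPM with vehicle and at 18.3, 15.2 and 15.4 CPM with Act D. The groups overlapped in all 4 comparisons, and with Act D they overlapped only between the highest library of the sub-line and the lowest of HCT 116p53-/- cells.

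The log2 fold change of ETHE1 between the lines was -0.06 ± 0.14 with vehicle (adjusted p = 0.719, interval -0.34 to 0.22) and -0.31 ± 0.15 with Act D (adjusted p = 0.0685, interval -0.6 to -0.02). The second passed under some settings, among them library size alone (-0.55, adjusted p = 0.0038) and the fit of only the 2 groups compared (-0.3, adjusted p = 0.042). It also passed without vehicle library 1 of HCT 116p53-/- cells (0.0424), their Act D library 2 (0.0397) or Act D library 1 labelled uL3Δ (0.0428). The responses to Act D were 0.22 ± 0.14 in HCT 116p53-/- cells (adjusted p = 0.329) and -0.04 ± 0.15 in the sub-line (adjusted p = 0.917). ETHE1-201 took 87.5% of the count in the library deposited per transcript, and 238 exonic bases (15%) overlap ZNF575 on the opposite strand, which had 14.0 counts over 12 libraries.

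**Figure D1:**
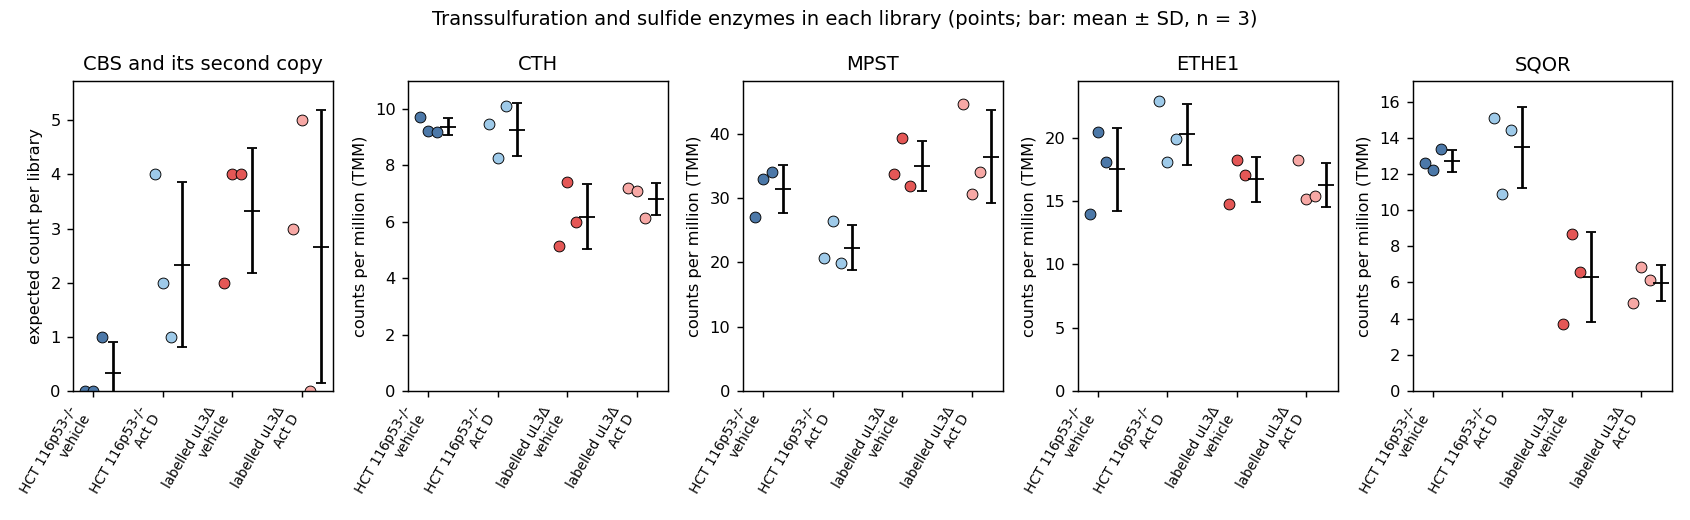
Level of each member in each of the 12 libraries (points) with the mean ± SD of the 3 libraries of a group (bars). The y axis gives CPM for CTH, MPST, ETHE1 and SQOR and the expected count summed over CBS and its second copy for CBS. CTH and SQOR lie lower in both groups labelled uL3Δ, MPST lies lower in Act D-treated HCT 116p53-/- cells, and CBS stays at 5 counts or fewer.

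Read per comparison, 2 of the 4 tested members passed between the lines with vehicle, CTH and SQOR, both lower in the libraries labelled uL3Δ. Of all 15692 genes tested 71.3% passed in this comparison, 35.1% higher and 36.2% lower, and the 2 members whose groups did not overlap compare with 72.5% of all genes. With Act D 3 members passed, CTH and SQOR lower and MPST higher, against 70.4% of all genes (35.1% higher, 35.3% lower), and 3 did not overlap against 74.1%. The share of members that passed was thus below that of all genes with vehicle and near it with Act D. With 4 members tested, neither share can be told apart from the background. The median log2 fold change of the 4 members was -0.32 with vehicle and -0.38 with Act D, against -0.02 over all genes tested in both.

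For Act D against vehicle 1 member, MPST, passed in HCT 116p53-/- cells, where 18.7% of all genes passed (7.59% higher, 11.1% lower) and 38.2% did not overlap. In the libraries labelled uL3Δ 0 members passed by edgeR's quasi-likelihood test, 0 had an unadjusted p under 0.05 and DESeq2 also called 0, while 11.9% of all genes passed (3.51% higher, 8.4% lower) and 27.6% did not overlap. The difference between both responses passed for 0 members (1, MPST, at an unadjusted p under 0.05, and 0 by DESeq2) and for 6.53% of all genes. The median response of the members was 0.03 in HCT 116p53-/- cells and 0.01 in the sub-line.

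**Figure D2:**
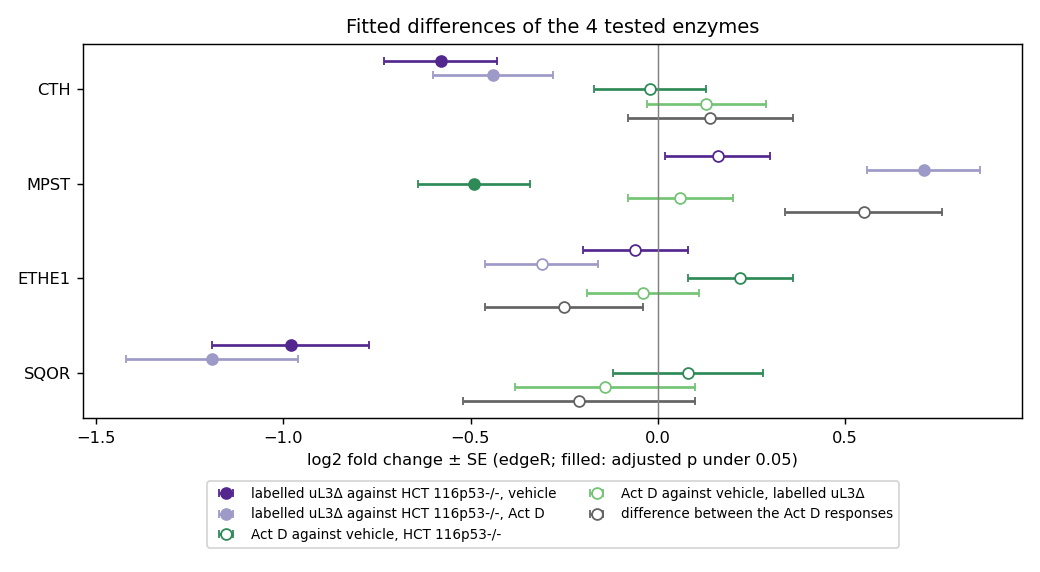
Log2 fold change (x axis) of the 4 tested members in the 5 comparisons, with bars of 1 standard error and filled points for an adjusted p under 0.05. SQOR stands lowest between the lines at -0.98 and -1.19, and the 2 filled points of MPST lie on opposite sides of 0.

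Levels were compared between genes per transcript length only, with the deposited TPM. MPST and ETHE1 were the most abundant, between 10.1 and 19.6 TPM and between 9.79 and 23.6 TPM. SQOR was between 1.44 and 7.66 TPM, CTH between 1.84 and 4.63 TPM and CBS at most 0.21 TPM. The order of MPST and ETHE1 was not fixed: MPST was the higher in 8 of 12 libraries, and ETHE1 in all 3 Act D libraries of HCT 116p53-/- cells. SQOR was above CTH in 10 of 12 libraries, and the 2 exceptions were both labelled uL3Δ. In that line the ranges of both genes overlapped, and no test was made of any order.

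TPM is not scaled for differences in composition as the CPM is, and it stood lower in the sub-line for ETHE1 as well. ETHE1 was at 18 ± 2.47 TPM (SD, n = 3) in HCT 116p53-/- cells and 12.2 ± 0.628 TPM in the sub-line with vehicle, and MPST at 18.2 ± 1.53 and 14.9 ± 1.47 TPM. On the same scale CTH was at 4.20 ± 0.416 and 1.93 ± 0.0854 TPM and SQOR at 6.24 ± 0.593 and 2.18 ± 0.692 TPM. With vehicle the direction for CTH and SQOR was the same on both scales, and for MPST it was not. With Act D MPST was higher in the sub-line on both scales. Its means there were 12.2 ± 2.56 TPM in HCT 116p53-/- cells and 15.1 ± 3.6 TPM in the sub-line, with overlapping ranges in TPM.

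**Figure D3:**
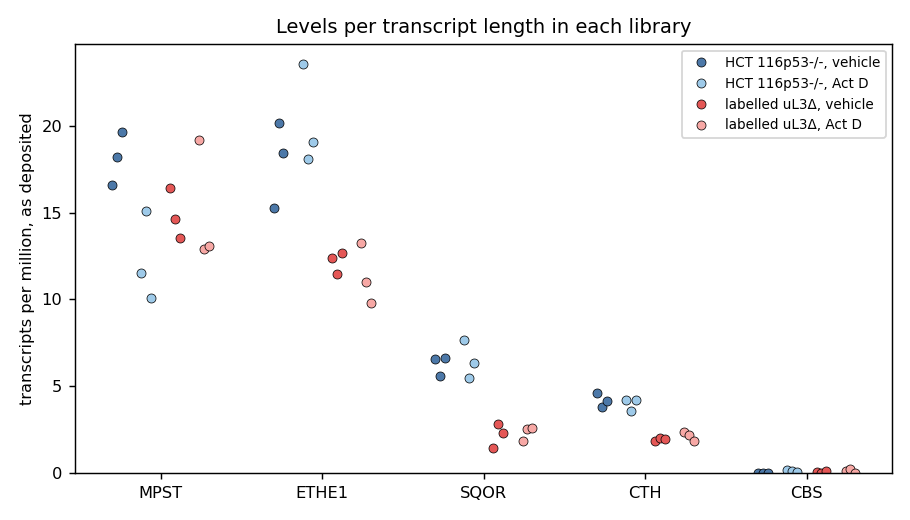
Deposited TPM (y axis) of each member in each of the 12 libraries, coloured by group. MPST and ETHE1 lie near each other and above SQOR and CTH, and CBS lies at 0.21 TPM or less.

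The genes whose pattern over the 12 libraries was most like that of SQOR, the one member whose group means spanned more than 1 on the log2 scale (1.16), were GNPDA2, IPP and IFIT1. Likeness was the root mean square difference of log2 CPM after centring each gene, and it was 0.21, 0.23 and 0.23. GNPDA2 had means of 26.4 CPM (vehicle-treated HCT 116p53-/- cells) and 10.8 CPM (vehicle-treated sub-line). The span of the other members was 0.6 for CTH, 0.7 for MPST and 0.31 for ETHE1.

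The surrounding pathways were read through 5 lists with 71 genes, of which 64 were tested. Between the lines 26 of them were higher and 27 lower with vehicle, where 35.1% of all genes tested were higher and 36.2% lower, and 22 higher and 28 lower with Act D (35.1% and 35.3% of all genes). Act D raised 2 and lowered 10 in HCT 116p53-/- cells, where it raised 7.59% and lowered 11.1% of all genes. In the sub-line it raised 2 and lowered 12 of the 64, against 3.51% and 8.4% of all genes.

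The methionine cycle, which supplies homocysteine to CBS and salvages methionine, had 5 of 14 tested genes higher and 7 lower between the lines with vehicle, with a median log2 fold change of -0.26. With Act D the counts were again 5 and 7, with a median of -0.12. Over all genes tested 35.1% were higher and 36.2% lower with vehicle, and 35.1% and 35.3% with Act D (median -0.02 in both). MTAP, which starts the salvage of methylthioadenosine, fell from 414.6 ± 20.1 to 58.3 ± 1.69 CPM with vehicle (log2 fold change -2.83, adjusted p = 5.41e-15). APIP, a later enzyme of this salvage, rose from 20.2 ± 0.758 to 40.4 ± 1.83 CPM (1.0, adjusted p = 3.13e-08). MTRR, which keeps methionine synthase active, rose by 0.8 (adjusted p = 8.14e-08), and ENOPH1 fell by 0.67 (adjusted p = 4.16e-06). The homocysteine methyltransferase BHMT had 0 counts in the 12 libraries. GNMT, which methylates glycine, was at most at 0.228 CPM.

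Among genes that handle sulfide and persulfides, 7 of 20 tested were higher and 10 lower between the lines with vehicle (median -0.19), and 6 higher and 8 lower with Act D (median -0.11). Shares over all genes were 35.1% higher and 36.2% lower with vehicle, and 35.1% and 35.3% with Act D (median -0.02 in both). TSTD1, a thiosulfate sulfurtransferase, measured 19.9 ± 0.726 CPM in the vehicle libraries of HCT 116p53-/- cells, compared with 0.133 ± 0.119 CPM in those of the sub-line (adjusted p = 1.17e-13). SELENBP1, a methanethiol oxidase that gives off hydrogen sulfide, was at 0 CPM in the HCT 116p53-/- vehicle libraries and 15.1 ± 3.17 CPM in the sub-line, at least 73.2-fold higher against 3 counts per library. With Act D it was at 0.18 ± 0.123 and 18.2 ± 0.332 CPM (adjusted p = 2.03e-11). CARS1, the cytosolic cysteinyl-tRNA synthetase, rose from 51.2 ± 2.01 to 166.1 ± 14.6 CPM (1.7, adjusted p = 9.69e-12), and GOT1, a cytosolic aminotransferase, from 86.0 ± 5.12 to 188.3 ± 16.7 CPM (1.13, adjusted p = 1.72e-09).

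The other steps of mitochondrial sulfide oxidation, chosen after their values were seen, moved in both directions. SUOX, which oxidises sulfite to sulfate, was lower in the libraries labelled uL3Δ by -1.02 ± 0.16 on the log2 scale with vehicle (adjusted p = 1.63e-05) and -0.99 ± 0.18 with Act D (adjusted p = 8.07e-05). TST, the sulfurtransferase rhodanese, was higher by 0.74 ± 0.15 (adjusted p = 0.000197) and 0.51 ± 0.15 (adjusted p = 0.00467). The second of these calls for TST was lost with library size alone (0.28, adjusted p = 0.143) and without Act D library 1 labelled uL3Δ (0.35, adjusted p = 0.0534). COQ7 and COQ9, which work in the synthesis of ubiquinone, the acceptor of the electrons from SQOR, were lower with vehicle by -0.49 ± 0.13 (adjusted p = 0.00299) and -0.39 ± 0.11 (adjusted p = 0.00299).

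Of the 6 genes listed for cysteine oxidation and taurine, 3 were tested, with 2 higher and 0 lower with vehicle, and 1 higher and 0 lower with Act D. Among all genes 35.1% were higher and 36.2% lower with vehicle, and 35.1% and 35.3% with Act D. SLC6A6, the taurine transporter, rose from 51.5 ± 1.57 to 133.9 ± 8.40 CPM with vehicle (1.38, adjusted p = 8.54e-11). ADO, a thiol dioxygenase, passed with vehicle at 0.29 ± 0.1 (adjusted p = 0.0132), but not with library size alone (0.05, adjusted p = 0.683) or without vehicle library 1 labelled uL3Δ (0.2, adjusted p = 0.07). The cysteine dioxygenase CDO1 was at most at 0.145 CPM in any library.

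Cystine uptake and glutathione synthesis, the other main use and source of cysteine, had 9 of 16 tested genes higher and 6 lower with vehicle (median 0.5), and 7 higher and 7 lower with Act D (median 0.03). All genes tested gave 35.1% higher and 36.2% lower with vehicle, and 35.1% and 35.3% with Act D (median -0.02 in both). SLC1A1, which carries glutamate and cysteine, measured 10.8 ± 0.858 CPM in vehicle-treated HCT 116p53-/- cells, compared with 0.355 ± 0.175 CPM in the vehicle-treated sub-line (-4.8, adjusted p = 9.38e-11). SLC1A4, a carrier of neutral amino acids, rose from 4.46 ± 1.12 to 19.0 ± 0.124 CPM (2.1, adjusted p = 1.87e-09). GPX4, which uses glutathione to reduce lipid peroxides, rose from 139.3 ± 14.0 to 291.4 ± 19.0 CPM (1.06, adjusted p = 6.14e-09), and the aminopeptidase LAP3 fell from 72.4 ± 3.68 to 36.2 ± 0.294 CPM (-1.0, adjusted p = 3.92e-09).

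Transcription factors and partners known for acting on these genes had 3 of 11 higher and 4 lower with vehicle (median -0.11), and 3 higher and 6 lower with Act D (median -0.23). Over all genes 35.1% were higher and 36.2% lower with vehicle, and 35.1% and 35.3% with Act D (median -0.02 in both). ATF4, which induces CTH and amino acid genes when amino acids run short, rose from 241.9 ± 17.8 to 522.6 ± 51.7 CPM with vehicle (1.11, adjusted p = 1.91e-09) and from 201.8 ± 4.34 to 395.9 ± 11.9 CPM with Act D (0.97, adjusted p = 1.39e-08). DDIT3, its partner in the stress response, rose from 8.58 ± 1.22 to 29.4 ± 7.14 CPM with vehicle (1.79, adjusted p = 2.83e-08). CTH was lower in the same libraries in which ATF4 was higher. NFYA, a subunit of the factor that binds CCAAT boxes, fell from 55.8 ± 5.91 to 27.9 ± 3.96 CPM (-1.01, adjusted p = 3.65e-07), and KEAP1, which holds NRF2 back, fell from 116.3 ± 5.89 to 64.3 ± 10.7 CPM (-0.86, adjusted p = 1.45e-06). NFE2L2, which encodes NRF2 and is named after its values were seen, was lower as well. Its log2 fold change was -0.47 with vehicle (adjusted p = 0.000641) and -0.81 with Act D (adjusted p = 2.47e-06).

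**Figure D4:**
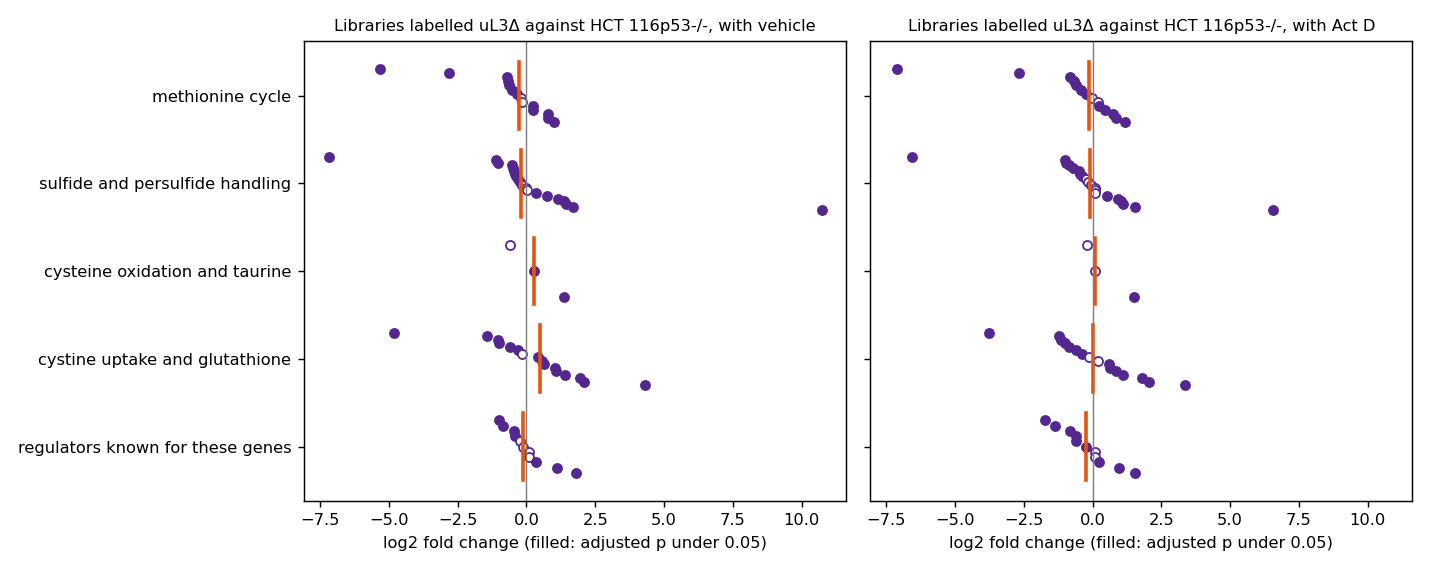
Log2 fold change between the lines (x axis) of each tested gene of the 5 lists, with vehicle on the left and with Act D on the right. Filled points have an adjusted p under 0.05 and orange bars mark each list's median, between -0.26 and 0.5. The point farthest to the right is SELENBP1, whose fitted value with vehicle rests on libraries without a count and measures no fold.

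In HCT 116p53-/- cells the gene of each list with the smallest adjusted p for Act D was lower with the drug in all 5 lists. MTAP fell by 0.61 ± 0.08 (adjusted p = 2.82e-05), CARS2, a mitochondrial cysteinyl-tRNA synthetase that also makes persulfides, by 0.4 ± 0.09 (adjusted p = 0.00444). CHAC1, which degrades glutathione, fell by 0.7 ± 0.22 (adjusted p = 0.0294), ATF4 by 0.26 ± 0.09 (adjusted p = 0.0401) and SLC6A6 by 0.26 ± 0.09 (adjusted p = 0.0452). The last 3 rest on single libraries. CHAC1 was lost without vehicle library 1 (0.0606) or 2 (0.148) or Act D library 2 (0.102) or 3 (0.0881). ATF4 was lost without vehicle library 1 (0.128) or 2 (0.132), without Act D library 1 (0.135), 2 (0.0865) or 3 (0.135), and without Act D library 2 (0.056) or 3 (0.0675) labelled uL3Δ. SLC6A6 was lost without any one of the 6 libraries compared (adjusted p between 0.0638 and 0.14), without vehicle library 3 (0.0559) or without Act D library 3 (0.0689) labelled uL3Δ.

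In the libraries labelled uL3Δ Act D lowered 5 and raised 1 of the 16 tested genes of cystine uptake and glutathione (median -0.08), and lowered 3 and raised 1 of the 20 that handle sulfide and persulfides (median 0.04), against a median of 0.03 over all genes tested. Act D lowered 8.4% and raised 3.51% of all genes in these libraries. TXNRD1, which reduces thioredoxin, fell from 1031.9 ± 112.7 to 444.1 ± 55.6 CPM, by 1.22 ± 0.11 on the log2 scale (adjusted p = 2.3e-06). CHAC1 fell from 24.3 ± 2.50 to 8.15 ± 2.29 CPM (-1.54, adjusted p = 4.04e-05), and GCLC, the catalytic subunit that starts glutathione synthesis, from 124.0 ± 16.7 to 68.5 ± 4.37 CPM (-0.86, adjusted p = 4.18e-05). SLC7A11, the cystine carrier, fell from 134.3 ± 9.63 to 76.8 ± 15.4 CPM (-0.81, adjusted p = 0.000217). The 2 that rose were TXN2, the mitochondrial thioredoxin, and the dipeptidase CNDP2, the latter named after its values were seen. TXN2 went from 18.4 ± 1.94 to 28.8 ± 6.53 CPM (0.64, adjusted p = 0.00575), a call lost without Act D library 3 labelled uL3Δ (0.0504). CNDP2 rose by 0.51 on the log2 scale (adjusted p = 0.0362), but its groups overlapped. Its call was lost without any one of 7 libraries (adjusted p between 0.0504 and 0.163): vehicle library 2 or 3 or Act D library 1 or 3 labelled uL3Δ, and vehicle library 2 or Act D library 1 or 3 of HCT 116p53-/- cells. With library size alone (0.4, adjusted p = 0.142) or only the 2 groups compared (0.48, adjusted p = 0.0855) the call of CNDP2 was lost as well. TXN (0.09, adjusted p = 0.562) and the glutathione synthetase GSS (0.12, adjusted p = 0.372) did not pass. MTAP fell by 0.44 ± 0.08 (adjusted p = 0.00202) and KEAP1 by 0.56 ± 0.11 (adjusted p = 0.00312). The 4 tested members had log2 fold changes between -0.14 and 0.13 in the same libraries.

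**Figure D5:**
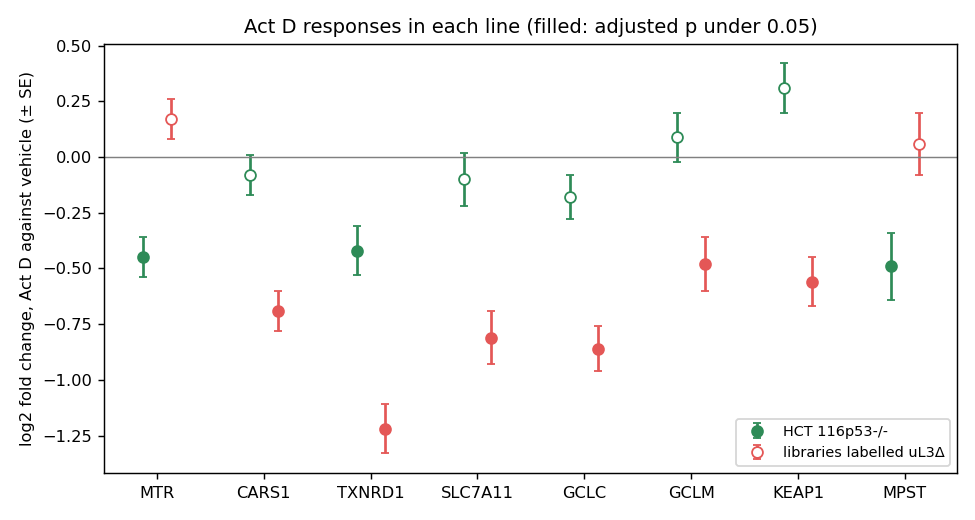
Log2 fold change of Act D against vehicle (y axis, ± 1 SE) in HCT 116p53-/- cells and in the libraries labelled uL3Δ, for the 7 listed genes whose responses differed between the lines and for MPST, whose responses did not pass that test. Filled points have an adjusted p under 0.05.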

How the data were processed

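RNA was extracted from 12 cultures in 4 groups and sequenced from both ends (TruSeq kit, NovaSeq). The authors trimmed the reads, removed ribosomal and PhiX reads and ran RSEM 1.2.25 against Ensembl annotation on hg38. The authors deposited its expected counts, posterior mean counts and TPM without further scaling. RSEM divides reads that fit several genes, so genes with a near-identical copy, CBS among them, have less certain counts. Replicate 2 of vehicle-treated HCT 116p53-/- cells was deposited per transcript and was summed per gene. Totals were between 10087925 and 21138886 counts, and no 2 libraries were identical (chi-square per degree of freedom between replicates 7.24 to 107.37). The highest values, 107.37 and 62.63, were those of Act D library 1 labelled uL3Δ against libraries 2 and 3 of its group. Between libraries 2 and 3 of that group the value was 12.99.

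Groups and replicate numbers came from the sample titles. Expected counts were rounded, filtered with filterByExpr (15692 genes), scaled with TMM and fitted in 1 model with a coefficient per group by edgeR 4.0.16 (common dispersion 0.0117). Each adjusted p is from the quasi-likelihood test of edgeR, adjusted by the Benjamini-Hochberg method over all genes tested, with a threshold of 0.05 ("passed"). GENCODE v44 names matched 60261 of 60617 identifiers, and RefSeq promoters were found for 4 of the 5 members. In each list and comparison up to 4 genes were named, those with the smallest adjusted p past the threshold, whose mean reached 1 CPM in either group and whose groups did not overlap. The lists, the tests and the members were chosen with earlier results of these data known. The fits were first tried on simulated counts with known changes, and every value given here comes from the deposited counts. Alternatives were DESeq2 1.42.0, the likelihood-ratio test, other scales and filters, a replicate block, only the 2 groups compared, posterior mean counts, a log2 fold change of at least 1, and each library left out. R 4.3.3 and pandas 2.3.3 were used.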

Additional observations from a re-analysis of the deposited data

Results flagged for a closer look

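Of the genes in the 5 lists, 7 had a response to Act D that differed between the lines by the test of the difference itself (interaction term, edgeR's quasi-likelihood test), and 0 of the members did. Of all genes tested 6.53% passed this test.

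The difference, the response in the libraries labelled uL3Δ minus that in HCT 116p53-/- cells on the log2 scale, was above 0 only for MTR, methionine synthase, at 0.62 ± 0.13 (adjusted p = 0.0088). In HCT 116p53-/- cells MTR went from 63.3 ± 3.08 CPM (vehicle) to 46.3 ± 1.78 CPM (Act D), and in the sub-line the 2 values were 56.1 ± 5.05 and 62.9 ± 6.15 CPM. The fall in HCT 116p53-/- cells passed (adjusted p = 0.00221), and the change in the sub-line did not (adjusted p = 0.282).

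For CARS1 it was -0.61 ± 0.12 (adjusted p = 0.00716), with responses of -0.08 in HCT 116p53-/- cells and -0.69 in the sub-line. TXNRD1 fell in both lines, by 0.42 and by 1.22, and the difference was -0.8 ± 0.15 (adjusted p = 0.00414). The fall of TXNRD1 in HCT 116p53-/- cells lost its call without their vehicle library 1 (adjusted p = 0.0541), Act D library 1 (0.0557) or Act D library 2 (0.0541). KEAP1 had the largest difference of the 7, -0.87 ± 0.16 (adjusted p = 0.00308), with a response of 0.31 in HCT 116p53-/- cells and -0.56 in the sub-line. Its response in HCT 116p53-/- cells did not pass (adjusted p = 0.0537), and that in the sub-line did (adjusted p = 0.00312).

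The cystine carrier SLC7A11 (-0.71 ± 0.17, adjusted p = 0.0167) and both subunits of the enzyme that starts glutathione synthesis, GCLC (-0.68 ± 0.15, adjusted p = 0.00916) and GCLM (-0.57 ± 0.16, adjusted p = 0.0389), made up the rest. GCLM lost its call without any one of 9 libraries (adjusted p between 0.0504 and 0.0941): all 3 vehicle libraries labelled uL3Δ, Act D library 1 labelled uL3Δ, all 3 Act D libraries of HCT 116p53-/- cells and their vehicle libraries 2 and 3. The other 6 kept theirs under every alternative run for them. The further threshold of a log2 fold change of at least 1 was run for the members alone, and the differences of all 7 lie below it in size. The plot of Act D responses in each line shows these 7 genes beside MPST.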

How the results depend on the processing

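The calls for SQOR in both comparisons of the lines, for CTH with vehicle and for MPST with Act D held under every alternative except the further threshold of a log2 fold change of at least 1. Under that threshold CTH (-0.58 with vehicle, -0.44 with Act D), MPST (0.71 between the lines with Act D, -0.49 for Act D in HCT 116p53-/- cells) and SQOR with vehicle (-0.98) were no longer called, which leaves SQOR with Act D, so that the number of members called went to 0 with vehicle, 1 with Act D and 0 for Act D in HCT 116p53-/- cells.

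With 1 library left out, CTH between the lines with Act D ranged from -0.52 to -0.41 and lost its call without Act D library 1 or 3 of HCT 116p53-/- cells. MPST for Act D in HCT 116p53-/- cells ranged from -0.63 to -0.4 and lost its call in 4 of these fits, and the number of members called there was between 0 and 1. ETHE1 between the lines with Act D ranged from -0.41 to -0.22 and gained a call in 3 of these fits. It also gained one with library size alone (-0.55), without the filter (-0.34) and with only the 2 groups compared (-0.3).

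Reversals concerned values that had not passed the test. With library size alone, which shifted the median gene by -0.24 between the lines and by -0.1 for Act D, MPST between the lines with vehicle was -0.08, SQOR for Act D in HCT 116p53-/- cells -0.03, MPST for Act D in the sub-line -0.03 and RPL3 between the lines -0.11 and -0.13. With the upper quartile CTH for Act D in HCT 116p53-/- cells was 0.02, ETHE1 for Act D in the sub-line 0.03, and RPL3 0.02, 0.04 and 0.02 for both responses and their difference. With 1 library left out the ranges crossed 0 for ETHE1 with vehicle (-0.2 to 0.06), for CTH (-0.07 to 0.06), SQOR (-0.02 to 0.21) and RPL3 (-0.03 to 0.01) with Act D in HCT 116p53-/- cells, for MPST (-0.12 to 0.16), ETHE1 (-0.14 to 0.04), SQOR (-0.39 to 0.18) and RPL3 (-0.09 to 0.03) with Act D in the sub-line, and for the difference of both responses in SQOR (-0.47 to 0.1) and RPL3 (-0.08 to 0.04). The cause of these changes was not tested.

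Replicate numbers are shared between groups, and no shift shared by same-numbered libraries was seen. Correlations of deviations were between -0.1 and 0.1 for same-numbered and for different-numbered libraries. They cannot show whether same-numbered cultures were handled in parallel. The fit with the replicate block changed no call of a member, and it called 722 genes in place of 1025 for the difference of both responses. Among the other named genes it ended the calls of GCLM for the difference (adjusted p = 0.0639), of ATF4 (0.0538), SLC6A6 (0.0705) and SUOX (0.0629) for Act D in HCT 116p53-/- cells and of TXNRD2 (0.0741) and CNDP2 (0.0555) for Act D in the sub-line. Leaving out 1 of 3 Act D libraries lowered counts over all genes by more than 1.5 times, to 1833 in place of 2939 genes for Act D in HCT 116p53-/- cells without their Act D library 1, 1949 without library 2, and for the difference 630, 669 and 614 in place of 1025 without these or without Act D library 1 labelled uL3Δ. The share of higher genes among the calls moved from 49.2% to 37.6% between the lines with vehicle, from 49.8% to 38.3% with Act D, from 40.5% to 19.3% for Act D in HCT 116p53-/- cells and from 29.5% to 10.9% in the sub-line with library size alone, to 48.3% in the last with the upper quartile, and from 50.5% to 39.7% for the difference without the filter. CBS, summed with its second copy, had 26 counts over all libraries, and the part of depth in this was not tested.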
